A study of Homo sapiens with 6 samples.

Results

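The immunoglobulin heavy chain locus of the T lymphoblast leukemia line CCRF-CEM was described through its H3K27ac peaks, taken as every deposited peak that overlapped chromosome 14 from 106030001 to 107290000 on hg19. Of 1440888 deposited peaks in 6 libraries, 1501 met this rule, between 237 and 285 in a library. The H3K27ac mark, a histone H3 acetylation, had been mapped by ChIP sequencing in cells with a knockout of SLFN11 and in the parental wild-type cells. Each genotype had a library after the vehicle DMSO, after camptothecin at 100 nM for 2 h, and after the same dose for 4 h. These times are those of the titles and treatment labels, while the extraction protocol speaks of 4 h alone. SLFN11, of the Schlafen family, makes cells more sensitive to replication-stalling agents, and camptothecin is an inhibitor of topoisomerase I. Each of the 6 groups was 1 library, so no difference given here has a replicate check and no test between groups was run. The locus was selected on the peaks of these same lists, by their −log10 p and their crowding in the variable region, so height, rank and clustering are given as a description. Neither the SLFN11 knockout nor the T cell label was checked against genes, since no annotation of hg19 was used here.

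The heavy chain locus encodes the larger chain of antibodies. Its order along the chromosome, from low to high coordinates, is constant genes, joining segments, diversity segments and then the long array of variable segments, each variable segment with a promoter of its own. B cell precursors join one diversity segment to a joining segment and then a variable segment to both, and leukemias of the T lineage can carry the first of these joins. An enhancer lies between the constant and the joining genes, and a regulatory region lies beyond the last constant gene. H3K27ac marks active promoters and enhancers. In the RefSeq table of GRCh38.p14, used only for names and order, the locus began with IGHA2 at the low end and ended with IGHVIII-82 at the high end, with IGHV6-1 as the variable segment nearest to the diversity segments. That table listed 9 constant genes, 6 joining, 27 diversity and 48 variable segments, and another 79 variable pseudogenes. No peak was assigned to a gene, since that build is not the one the peaks are placed on.

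The region was divided at round positions into a constant end from 106030001 to 106320000, a joining end from 106320001 to 106400000 that also takes in the diversity side, and a variable end up to 107290000. Within the variable end, the cluster named for its dense strong peaks ran from 106749001 to 106831000. The stretches on either side of it are called the near variable end, next to the joining end, and the far variable end. A peak's fold and its p are the authors' values for that peak in its own library, and a rank of 1 is the smallest p of a list. By MACS2's formula, fold is taken here as pileup plus 1 over local background plus 1, not as a plain ratio. The part of the added 1 in differences of fold between libraries was not tested. Lists differed in length from 174843 to 410176 peaks, so comparisons between libraries used only the 30000 smallest-p peaks in each of them, called matched peaks here. Variable segments share much of their sequence, and how reads with several placements were treated is not given in the sources used here. The part of such reads in the peaks below was not tested.

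The libraries were not equally deep. The background pileup, solved from the values that the largest number of peaks shared, was 0.699 fragments per base in knockout DMSO, 0.715 in knockout 2 h and 0.168 in knockout 4 h, and 0.603, 0.506 and 0.570 in parental DMSO, 2 h and 4 h. The knockout 4 h library stands apart, and the other 5 are called the deeper libraries, by this value alone. Those shared values, the lowest tier of peaks, were carried by 48 of the 285 members in knockout 4 h and by 2 to 14 members elsewhere.

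Deposited peaks were found along the whole locus, but strong peaks lay only in the variable end. Deposited peaks covered 21.5%, 20.3% and 19.2% of the locus in knockout DMSO, 2 h and 4 h, and 19.6%, 19.0% and 20.5% in parental DMSO, 2 h and 4 h. The constant end was covered over 17.5% to 23.7% of its length in the 6 libraries, and the far variable end over 16.8% to 20.7%. The joining end and the cluster varied more, with 17.3% to 29.8% and 19.99% to 27.3%, the joining end being highest in knockout 4 h and the cluster in parental DMSO. Members in the constant end were low, with a median fold of 2.15, 1.93 and 1.71 in the knockout libraries and 2.09, 2.20 and 2.11 in the parental ones. In the near variable end the median fold was 3.21, 3.20 and 2.39 in the knockout libraries, against 3.03, 3.28 and 2.95 in the parental ones. The far variable end had a median fold of 2.93, 2.87 and 2.45, against 2.79, 2.88 and 2.98. Both variable stretches thus stood above the constant end in every library.

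**Figure D1:**
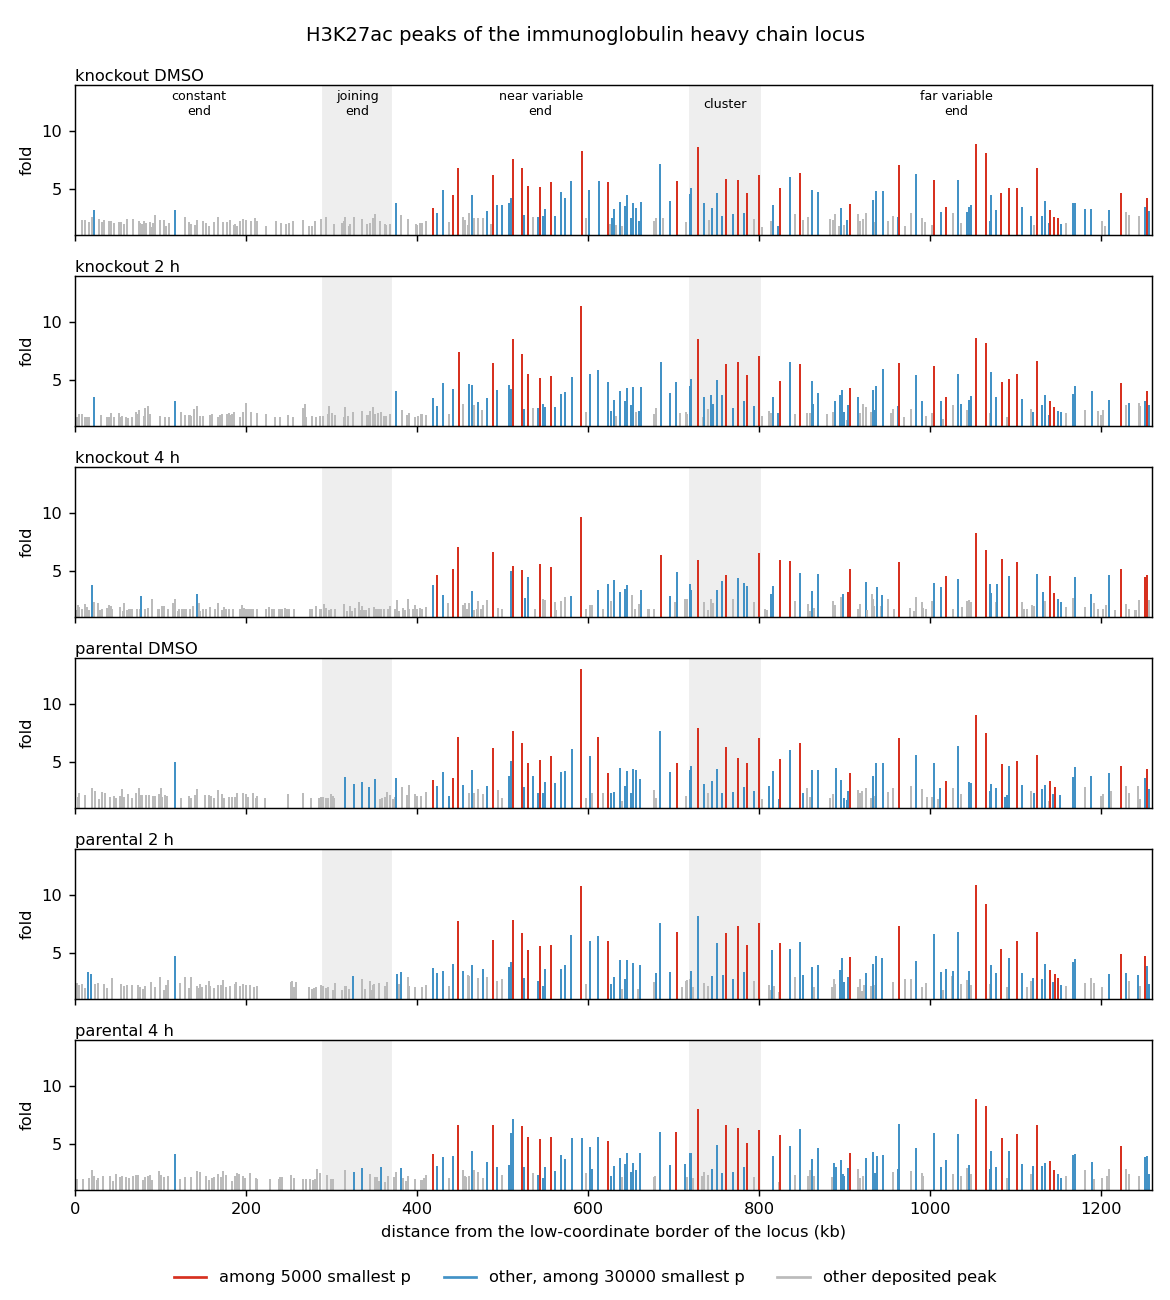
Each vertical line is 1 deposited peak at its centre, with distance from the low-coordinate border of the locus in kb on the x axis and fold on the y axis (axis from 1), 1 panel per library. Red lines are among the 5000 smallest p of the list, blue lines among the 30000, grey lines below both, and shading separates the 5 segments; red lines appear only in the variable end of each panel.

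Of each list's 5000 smallest-p peaks, the locus held 34, 29 and 28 in knockout DMSO, 2 h and 4 h, and 32, 27 and 24 in parental DMSO, 2 h and 4 h. All of these lay in the variable end in all 6 libraries, and the constant and joining ends held 0 in each. Among the 1000 smallest p, the locus held 9, 9 and 10 in the knockout libraries and 13, 7 and 4 in the parental ones. In 10 kb windows, 19.8% to 27.8% of the locus held 1 of the 5000, against 2.30% to 2.61% of chromosome 14 and 1.81% to 1.88% of chromosomes 1 to 22 and X. At least 1 of the matched 30000 was held by up to 61.9% of the windows of the locus, against up to 12.4% of those of chromosome 14. Chromosomes were also cut into 2422 stretches as long as the locus, starting from position 1. This grid cuts the locus in 2, so the 2 stretches that overlap it were set aside. Of the other 2420, the fullest held 19, 20 and 19 of the 5000 smallest-p peaks in knockout DMSO, 2 h and 4 h, and 19, 21 and 20 in parental DMSO, 2 h and 4 h, fewer than the locus in each library. The borders of the locus were placed to take in its peaks and those of the stretches were not, so this order is a description only.

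Ranking by fold gave the locus fewer places at the top than ranking by p. By fold, the locus held 19, 18 and 22 of the 5000 highest in knockout DMSO, 2 h and 4 h, and 17, 25 and 19 in parental DMSO, 2 h and 4 h. Between 12 and 20 members were in both sets, depending on the library. The median fold of the 5000 smallest-p peaks over the whole list was 5.47 to 6.18 in the 6 libraries. The member with the smallest p of the locus is one where the measures part. It lay in the far variable end, from 107251968 to 107253818 in knockout DMSO, and had ranks by p of 97, 104 and 77 in the knockout libraries and 108, 136 and 152 in the parental ones. Its −log10 p was 54.5, 58.5 and 23.8, against 53.5, 49.1 and 52.0. Its fold was 4.65, 4.67 and 5.10 in the knockout libraries and 4.59, 4.87 and 4.78 in the parental ones, and by fold it ranked between 3715 and 10151.

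Members of all lists were merged where they overlapped or touched, which gave 341 sites in the locus. A deposited peak of every library was present at 154 of them, and 81 held a peak of a single library. The constant end had 101 sites, 22 of them in all 6 lists, and the far variable end had 107 sites, 62 of them in all 6. Over the 154 sites, ranks by p in pairs of libraries had Spearman correlations of 0.904 to 0.966 in the 10 pairs without knockout 4 h and 0.840 to 0.853 in the 5 pairs with it. These points share their libraries and local background, and the correlations are a description.

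The site from 107251947 to 107253848, described above by its smallest-p peak, led the 10 with the smallest median rank over the 5 deeper libraries, of which 7 lay in the far variable end, 2 in the near variable end and 1 in the cluster. The site from 107083105 to 107084010 had the highest folds of the 10. Its fold was 8.89, 8.62 and 8.23 in knockout DMSO, 2 h and 4 h, and 9.04, 10.8 and 8.87 in parental DMSO, 2 h and 4 h. Its neighbour at 107094881 to 107095838 had folds of 8.06, 8.13 and 6.82 in the knockout libraries and 7.47, 9.18 and 8.28 in the parental ones. Between these sites was the widest stretch of the locus without a deposited peak in any library, 10870 bp long. At both sites the 2 genotypes overlapped, and parental 2 h was the highest of the 6 libraries.

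Wider sites of lower fold were also among the 10. The site from 106853985 to 106855421 had folds between 4.84 and 5.92 in the 6 libraries and ranks of 362, 707 and 104 in the knockout ones and 304, 264 and 312 in the parental ones. From 106934767 to 106936966 the fold was 3.63, 4.28 and 5.10 in knockout DMSO, 2 h and 4 h, and 3.97, 4.60 and 4.18 in parental DMSO, 2 h and 4 h. At 107130305 to 107132026 it lay between 5.05 and 5.99, and at 107112322 to 107114568 between 4.64 and 6.03. In 3 of these 4 sites knockout 4 h, the library of lowest background pileup, had the highest fold of the 6, and at 107130305 parental 2 h did.

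In the near variable end, 2 of the 10 sites were found. The site from 106585212 to 106587015 was nearly level in fold, with 5.56, 5.34 and 5.27 in knockout DMSO, 2 h and 4 h, and 5.49, 5.61 and 5.56 in parental DMSO, 2 h and 4 h. Its ranks by p nevertheless spread widely, at 390, 693 and 1593 against 186, 913 and 1042. The site from 106552322 to 106552979 had folds of 6.77, 7.19 and 5.08 in the knockout libraries and 6.62, 6.68 and 6.54 in the parental ones.

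The highest fold of any member was in a narrow peak of the near variable end, which was among the named sites as the smallest-p member of that stretch in knockout 4 h. In the site from 106621717 to 106623502, fold was 8.21, 11.4 and 9.67 in knockout DMSO, 2 h and 4 h, and 12.99, 10.7 and 5.47 in parental DMSO, 2 h and 4 h. The −log10 p was 21.1, 28.0 and 17.1, against 33.7, 23.6 and 10.6. Parental 4 h was the lowest and parental DMSO the highest of the 6 libraries in fold, with the knockout libraries and parental 2 h between them. The called width also differed between libraries, and the peak was 1050, 613 and 353 bp wide in knockout DMSO, 2 h and 4 h, and 347, 366 and 1763 bp wide in parental DMSO, 2 h and 4 h. For broad peaks MACS2 gives fold as a mean over the width, the 2 widest calls here had the 2 lowest folds, and the part of width in the difference was not tested. In parental DMSO the peak ranked 6 by fold in the whole list, and in knockout 4 h it ranked 7.

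The cluster held 15 to 17 members per library and was the segment with the largest share of its length under matched peaks in all 6 libraries. It was named for its dense strong peaks in these same lists, so this order is a description only. Matched peaks covered 20.7%, 21.2% and 10.50% of it in knockout DMSO, 2 h and 4 h, and 26.3%, 16.5% and 19.2% in parental DMSO, 2 h and 4 h. The near variable end was covered over 13.9%, 14.7% and 7.41%, against 15.6%, 13.5% and 14.3%. Far from the cluster, the constant end was covered over 0.439% to 0.923%. The cluster's members had a median fold of 4.55, 3.70 and 3.51 in the knockout libraries and 4.29, 3.18 and 2.95 in the parental ones.

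**Figure D2:**
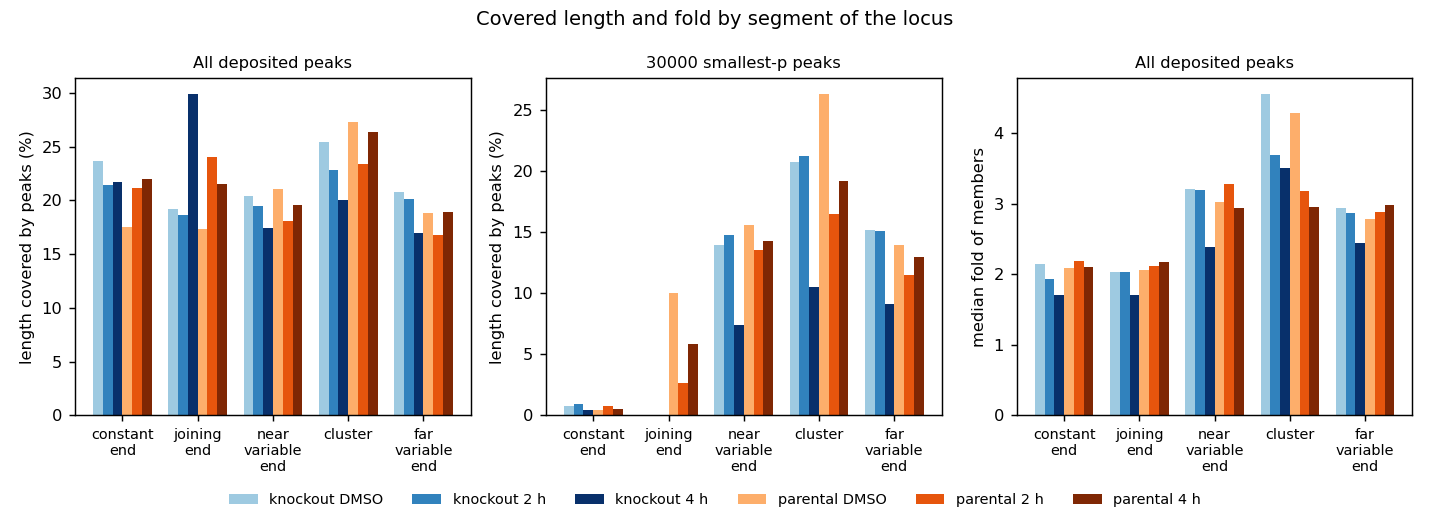
Bars give, for each segment of the locus and each of the 6 libraries, the percent of length covered by all deposited peaks (left), the percent covered by the 30000 smallest-p peaks (middle) and the median fold of members (right). All deposited peaks cover 16.8% to 29.8% of each segment, whereas matched peaks cover under 1% of the constant end and 7.41% or more of each variable segment.

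Of 18 sites in the cluster, 14 held a matched peak in at least 1 library, 11 in all 5 deeper libraries and 9 in all 6. They alternated in height along the cluster, with 6 sites at a fold of at least 4 in each of the 5 deeper libraries. The site from 106757484 to 106758475 was the highest of them in the 5 deeper libraries. Its fold was 8.62, 8.51 and 5.88 in knockout DMSO, 2 h and 4 h, and 7.92, 8.15 and 8.02 in parental DMSO, 2 h and 4 h.

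Another tall site, from 106790582 to 106791776, had folds of 5.86, 6.37 and 4.58 in the knockout libraries and 6.25, 6.66 and 6.56 in the parental ones, and was the third of the 10 strongest sites to lie outside the far variable end. From 106804158 to 106806244 the fold was 5.75, 6.52 and 4.39, against 5.30, 7.32 and 6.35. From 106815299 to 106816496 it was 4.65, 5.36 and 3.70, against 4.84, 5.63 and 5.05. In these sites DMSO was the lower of the DMSO and 2 h libraries in both genotypes, and knockout 4 h was the lowest of all.

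At the high border of the cluster, the site from 106829299 to 106830317 had folds of 6.13, 7.07 and 6.51 in knockout DMSO, 2 h and 4 h, and 7.06, 7.55 and 6.15 in parental DMSO, 2 h and 4 h. The site from 106779841 to 106781577 had 4.59, 4.99 and 3.31, against 4.36, 5.83 and 4.85. At the low border, the site from 106750094 to 106750869 had 5.03, 5.09 and 3.32, against 4.64, 3.37 and 4.17. Its neighbour from 106748798 to 106749288 had 4.55, 4.44 and 3.80, against 4.29, 2.75 and 4.15. Both low-border sites were lower in parental 2 h than in the other parental libraries, while the tall sites between 106779841 and 106830317 were higher there.

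Between the tall sites stood lower and wider ones. The site from 106785564 to 106788064 had a fold of 2.62, 3.64 and 4.11 in the knockout libraries and 2.24, 3.03 and 2.47 in the parental ones. From 106810901 to 106812788 it was 2.86, 3.10 and 3.89, against 2.83, 3.34 and 2.95. These were the sites of the cluster where knockout 4 h was the highest library. The other 4 sites with a matched peak, which start at 106765063, 106773919, 106798224 and 106822919, had folds of 2.12 to 3.76 in the 6 libraries.

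**Figure D3:**
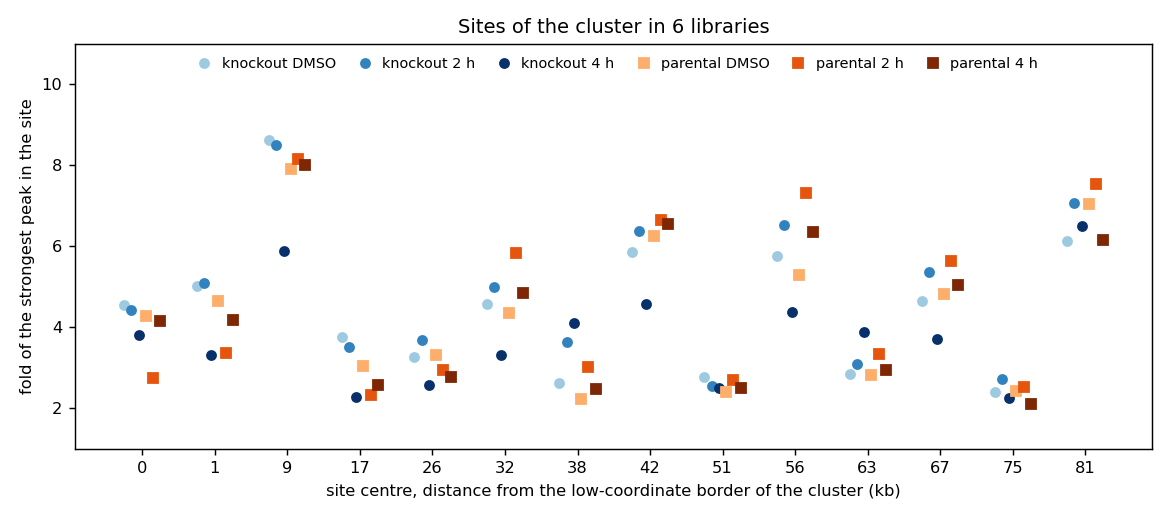
Fold of the strongest peak in each of the 14 sites of the cluster that held a matched peak in any library, against the position of the site centre in kb from the cluster's low border (sites evenly spaced). Circles are knockout and squares parental libraries, with darker shades for longer treatment. The 6 sites at a fold of at least 4 in all 5 deeper libraries alternate with lower sites.

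At the joining end, matched peaks were found in parental libraries and not in knockout libraries. The joining end held 0 matched peaks in each of knockout DMSO, 2 h and 4 h, and 5, 1 and 3 in parental DMSO, 2 h and 4 h. How often other stretches of this length show such an order was not counted. Of its 6 sites with a matched peak in any library, 4 were matched in 1 library alone (66.7%, beside 39.2% over chromosomes 1 to 22 and X). In parental DMSO but in neither treated parental library there were 3 of the 6 (50.0%, beside 9.89%). Deposited peaks covered 19.2%, 18.6% and 29.8% of it in the knockout libraries and 17.3%, 24.0% and 21.5% in the parental ones, so the genotypes overlapped in covered length. The site from 106354109 to 106359136 was the only one in the locus matched in all 3 parental libraries and in no knockout library, 1 of 146 sites with a matched peak in any library (0.685%), beside 0.481% of such sites over chromosomes 1 to 22 and X, or 0.782% where knockout 4 h is left out. Its fold was 2.57, 2.21 and 1.72 in knockout DMSO, 2 h and 4 h, and 3.02, 2.95 and 2.55 in parental DMSO, 2 h and 4 h. The lowest parental library was thus just under the highest knockout library. The −log10 p was 2.88, 2.07 and 1.67 in the knockout libraries and 5.16, 4.47 and 3.33 in the parental ones, with no overlap between genotypes, as for 11 of the 154 sites with a peak in all 6 lists (7.14%), beside 5.62% over those chromosomes. The peaks were 1946, 2299 and 3560 bp wide in the knockout libraries and 2834, 2155 and 2768 bp wide in the parental ones.

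A second site of the joining end, from 106364302 to 106366242, had folds of 2.39, 2.24 and 1.97 in the knockout libraries and 2.72 to 3.19 in the parental ones. It held the smallest-p member of the segment in parental 4 h. All 3 parental libraries were thus above all 3 knockout libraries in fold. Such an order, in fold and in −log10 p, held for 8 of the 154 sites of the locus with a peak in all 6 lists. That is 5.2%, beside 4.8% of such sites over the same chromosomes, a share near the background. In knockout DMSO, 2 h and 4 h the smallest-p members of the joining end were narrow peaks elsewhere, from 106380646 to 106380845 with a fold of 2.81, from 106327383 to 106327595 with 2.69 and from 106361384 to 106361587 with 2.24. None of the members of the joining end exceeded a fold of 3.63 in any library. These are weak peaks, and none ranked better than 18333 in its list. The 5 matched ones in parental DMSO had a −log10 q of 1.37 to 3.07. Over each whole list, the −log10 q of the weakest matched peak was between 0.970 and 1.31.

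The constant end had 1 site that stood above its surroundings. From 106145539 to 106147356 the fold was 3.17, 3.12 and 2.55 in knockout DMSO, 2 h and 4 h, and 4.96, 4.73 and 4.13 in parental DMSO, 2 h and 4 h. Its −log10 p was 4.40, 4.25 and 2.70, against 10.99, 9.94 and 7.62. All 3 parental libraries were above all 3 knockout libraries in fold and in −log10 p. This held for 8 of the 154 sites of the locus with a peak in all 6 lists (5.19%), beside 4.79% of such sites over chromosomes 1 to 22 and X, a share near the background. Leaving out knockout 4 h, it held for 10 of the 154 (6.49%), beside 10.5%. The opposite order, all 3 knockout above all 3 parental libraries, held for 0 of the 154, beside 1.73%. The peak of the constant end was 1357, 1818 and 941 bp wide in the knockout libraries and 1363, 1437 and 1442 bp wide in the parental ones, and the part of width and depth in the difference was not tested. It was matched in all 5 deeper libraries, the only such site of the constant end. In knockout 2 h and 4 h other members had the smallest p of the constant end. They lay at 106052174 to 106053031 with a fold of 3.50 and at 106049077 to 106049306 with a fold of 3.78.

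Peaks just inside the low border were weak, with folds of 2.23, 1.75 and 1.61 in the knockout libraries and 1.95, 2.37 and 1.91 in the parental ones. Just below that border the nearest peak had a fold of 2.86, 3.66 and 2.70 in knockout DMSO, 2 h and 4 h, and 5.12, 4.43 and 4.17 in parental DMSO, 2 h and 4 h. It started between 106025058 and 106026228 and is not a member. At the high border the last member had folds of 3.01, 2.80 and 2.41, against 2.66, 2.28 and 2.36, and no deposited peak lay above the border on chromosome 14.

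Gaps between deposited peaks were short, and those between matched peaks were long. The 5 widest stretches without a deposited peak of any library were 9273 to 10870 bp long and all lay in the variable end. They began at 107084011, 106610995, 106855422, 106542309 and 107200616. Of these 5, 4 touched a site already described, the sites starting at 107083105, 106621717, 106853985 and 106552322. In single libraries, the widest gap was 14350, 14439 and 17345 bp in the knockout lists and 26443, 39110 and 15037 bp in the parental ones.

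The widest gap between matched peaks ran from the constant end through the joining end. It was 258198, 258045 and 274350 bp long in knockout DMSO, 2 h and 4 h, and 198181, 207192 and 207037 bp in parental DMSO, 2 h and 4 h. In knockout DMSO it ran from 106147211 to 106405408, and in parental DMSO from 106147218 to 106345398. The knockout gaps took in the whole joining end and the parental ones ended inside it. Past the joining end, a site at 106405352 to 106406562 had folds of 3.74, 4.05 and 2.46, against 3.54, 3.18 and 2.53. In parental DMSO, the next matched gap of 40216 bp led up to 106446390, where the dense array of the variable end began.

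Within the variable end, 66 sites held a matched peak in all 6 libraries, 26 in the near variable end, 9 in the cluster and 31 in the far variable end. That is 45.2% of the 146 sites matched in any library, beside 24.5% over chromosomes 1 to 22 and X. Without knockout 4 h it was 86 sites, or 58.9%, beside 31% over those chromosomes. The locus was selected on −log10 p, and a matched peak is one within a limit on p. These shares are therefore a description only. The centres of the 66 sites were a median of 10579 bp apart, with quartiles of 6381 and 16509 bp, and the sites had a median width of 1666 bp. Their median fold was 4.72, 4.80 and 4.42 in knockout DMSO, 2 h and 4 h, and 4.60, 4.68 and 4.49 in parental DMSO, 2 h and 4 h. Sites with a matched peak in 1 genotype alone were few. In knockout DMSO and 2 h but in no parental library there were 2 of 146 (1.37%, beside 1.92%), and in all 3 knockout libraries but no parental one there were 0, beside 0.378%. In both treated parental libraries but not in parental DMSO there were 2 (1.37%, beside 3.55%), and in parental DMSO but in neither treated parental library there were 12 (8.22%, beside 9.89%).

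After camptothecin, the 66 sites had larger ranks by p, that is weaker places, in more cases than not, and this did not hold by fold. In knockout 2 h, 44 of the 66 ranked weaker than in knockout DMSO (66.7%), beside 49.6% of 14346 sites over chromosomes 1 to 22 and X. In knockout 4 h, 40 ranked weaker than in knockout DMSO (60.6%), beside 64.2%. In parental 2 h it was 46 (69.7%), beside 49.6%, and in parental 4 h 51 (77.3%), beside 47.9%. The share was above that over the chromosomes in 3 of these 4 comparisons and below it in knockout 4 h. The 66 sites started from stronger ranks than the others, with a median of 5330 in parental DMSO against 7498 over the chromosomes. Among sites with a DMSO rank up to 5000, 67.7% were weaker in knockout 2 h than in knockout DMSO, beside 53.4%, and 61.8% in knockout 4 h, beside 62.5%. Among such sites 78.1% (25 of 32) were weaker in parental 2 h than in parental DMSO, beside 56.1%, and 90.6% (29 of 32) in parental 4 h, beside 54.8%. Starting ranks were not level among such sites either. Their median was 1552 in parental DMSO, against 2477 over the chromosomes, and 2338 in knockout DMSO, against 2494. The parental comparisons share 1 DMSO library, as do the knockout ones.

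The median rank of the 66 sites was 4882, 6946 and 6334 in knockout DMSO, 2 h and 4 h, and 5330, 6399 and 7418 in parental DMSO, 2 h and 4 h. Ranked by fold, 48.5% were weaker in knockout 2 h than in knockout DMSO (beside 51.5%) and 39.4% in knockout 4 h (beside 44.4%). By fold, 34.8% were weaker in parental 2 h than in parental DMSO (beside 48.5%) and 40.9% in parental 4 h (beside 44.7%). By fold, then, most sites ranked stronger in the treated parental libraries and in knockout 4 h, the opposite of their order by p. The background pileup was 0.506 in parental 2 h and 0.570 in parental 4 h, against 0.603 in parental DMSO, and 0.715 in knockout 2 h against 0.699 in knockout DMSO. The part of depth in the rank shift was not tested.

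**Figure D4:**
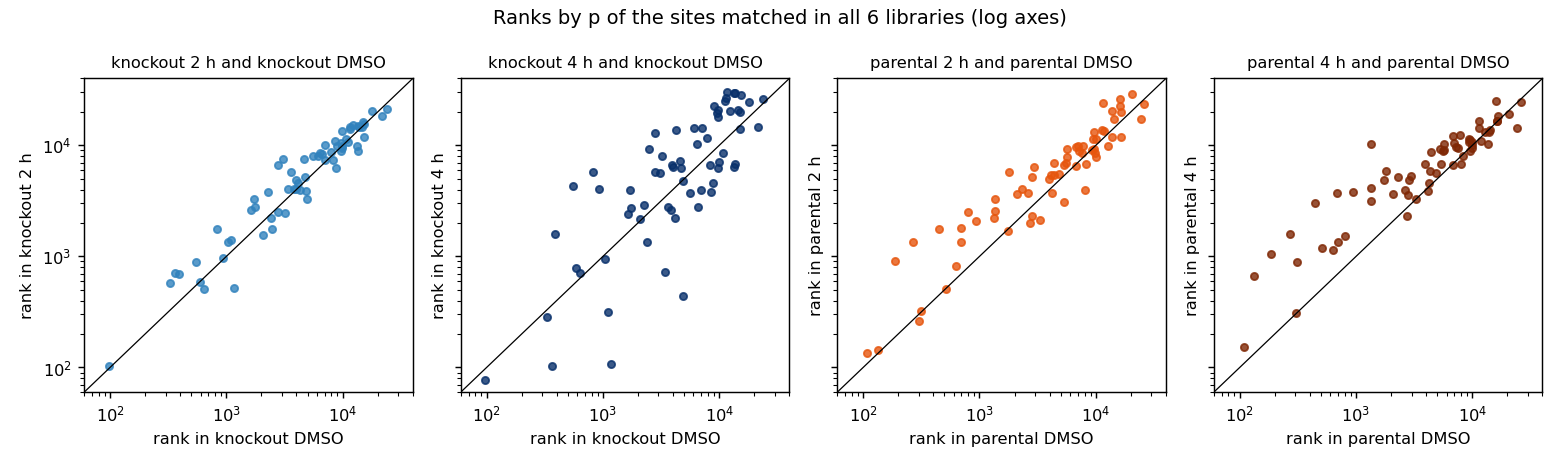
Each point is 1 of the 66 sites matched in all 6 libraries, with its rank by p in the treated library on the y axis and in the DMSO library of the same genotype on the x axis (both log axes, smaller is stronger), and the line marks equal ranks. Most points lie above the line, 44 and 40 in knockout 2 h and 4 h and 46 and 51 in parental 2 h and 4 h. In this order the shares are 66.7%, 60.6%, 69.7% and 77.3%, beside 49.6%, 64.2%, 49.6% and 47.9% over chromosomes 1 to 22 and X.

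Between genotypes, the direction by p differed between DMSO and 2 h. In knockout DMSO, 40 of the 66 sites ranked weaker than in parental DMSO (60.6%, beside 48.6%), and by fold 56.1% did (beside 55.1%). In knockout 2 h, 29 ranked weaker than in parental 2 h (43.9%, beside 50.1%), and by fold 60.6% did (beside 57.3%), the opposite direction.

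The length covered by matched peaks was also compared in 10 kb windows, where a window was called when it differed by at least 1000 bp. In knockout 2 h, 7 of 79 marked windows of the locus were higher than in knockout DMSO (8.86%, beside 5.42% over chromosomes 1 to 22 and X) and 4 were lower (5.06%, beside 4.09%), 13.9% in either direction beside 9.5%. In knockout 4 h, 0 of 77 were higher than in knockout DMSO (beside 2.23%) and 30 were lower (39.0%, beside 14.6%), with 16.9% over the chromosomes in either direction. The pileup of 0.168 in knockout 4 h, against 0.699 in knockout DMSO, moves with these 30 windows, and depth and treatment cannot be told apart there. Of them, 11 lay in the near variable end, 5 in the cluster, 13 in the far variable end and 1 in the constant end.

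In parental 2 h, 2 of 85 windows were higher than in parental DMSO (2.35%, beside 2.83%) and 16 were lower (18.8%, beside 7.81%), 21.2% in either direction beside 10.6%. At 4 h, 3 of 81 parental windows were higher (3.70%, beside 3.31%) and 7 were lower (8.64%, beside 6.17%), with 9.48% over the chromosomes in either direction. The matched cover of the locus was 117915 bp in parental 2 h and 131049 bp in parental 4 h, against 149305 bp in parental DMSO. Parental DMSO thus had the most matched cover of the 6 libraries. In the parental libraries, 6 windows were lower than in DMSO at both times and 1 was higher at both. The window starting at 106460001, chosen after its values were seen as the one with the largest difference of the 6, held 947 bp in parental 2 h and 895 bp in parental 4 h, against 3672 bp in parental DMSO, and 811, 784 and 783 bp in knockout DMSO, 2 h and 4 h. Most of the parental DMSO length there was a single peak, from 106465391 to 106468227. Its −log10 p was 3.212, and the weakest matched peak of that list also had 3.212. Peaks of similar width were deposited there in parental 2 h and 4 h, unmatched, with a −log10 p of 2.55 and 2.73. The fold was 2.01, 2.06 and 2.02 in parental DMSO, 2 h and 4 h.

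With all deposited peaks the balance in parental cells turned, to 15 higher and 14 lower of 124 windows at 2 h (8.12% and 7.71% over the chromosomes) and to 18 higher and 8 lower of 125 at 4 h (8.16% and 7.01%). The length under matched peaks counts what was among the strongest peaks of a list, not whether any peak was called there.

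In knockout DMSO, 5 of 81 windows were higher than in parental DMSO (6.17%, beside 5.25%) and 9 were lower (11.1%, beside 5.08%), 4 of the lower ones in the joining end. In either direction it was 17.3%, beside 10.3%. With all deposited peaks the order turned, to 15 higher and 4 lower of 125, beside 17.9% and 3.12% over the chromosomes, where the knockout DMSO list holds 271785 peaks and the parental DMSO list 174843. In knockout 2 h, 14 of 86 windows were higher than in parental 2 h (16.3%, beside 9.43%) and 2 were lower (2.33%, beside 3.06%), 18.6% in either direction beside 12.5%. The joining end window from 106350001 to 106360000, chosen after its values were seen, held 0 bp of matched peaks in each knockout library and 2834, 2155 and 2768 bp in parental DMSO, 2 h and 4 h. The cluster window from 106820001 to 106830000 held 693, 3328 and 594 bp in knockout DMSO, 2 h and 4 h, and 3301, 702 and 685 bp in parental DMSO, 2 h and 4 h. There the high and low libraries did not follow genotype or treatment, since the weak site from 106822919 to 106825625 was matched in knockout 2 h and parental DMSO only, with a fold between 2.12 and 2.72 in all 6 lists.

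**Figure D5:**
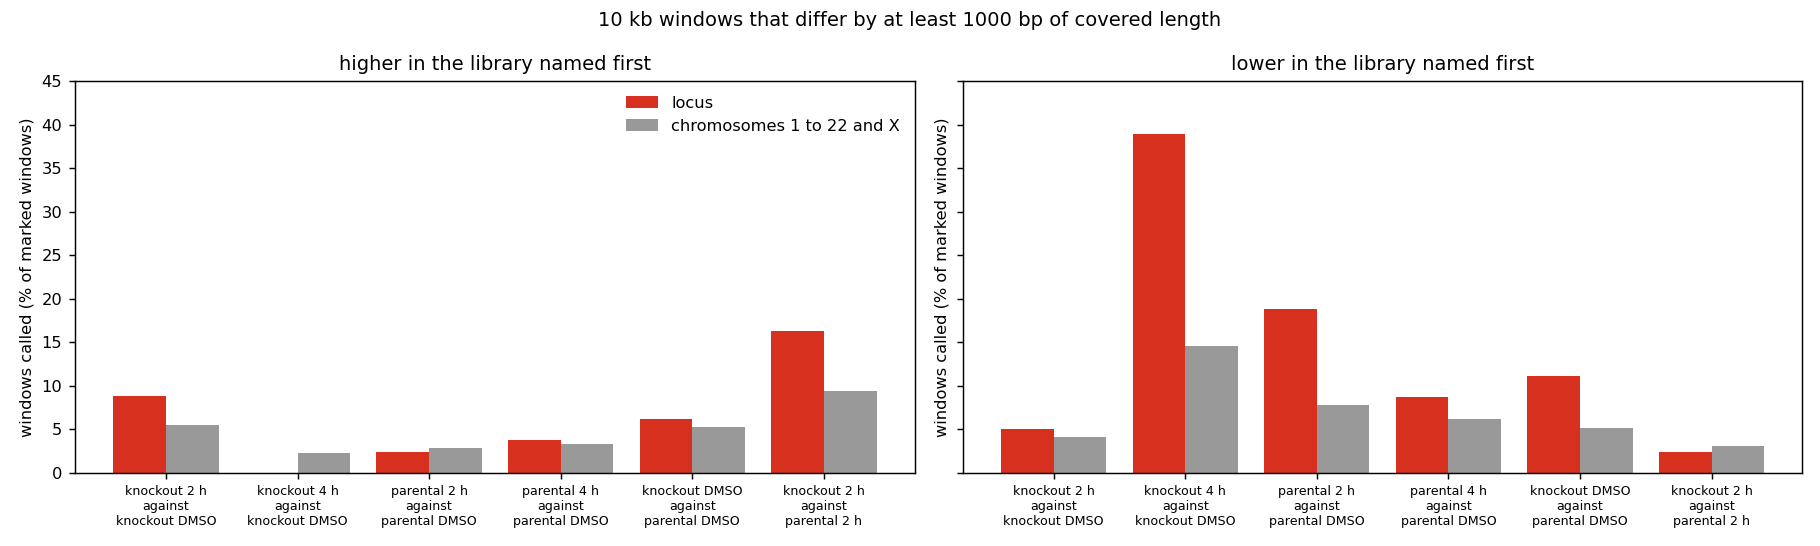
Bars give the percent of marked 10 kb windows that were higher (left) or lower (right) by at least 1000 bp of matched cover in the library named first, in the locus (red) and over chromosomes 1 to 22 and X (grey). The tallest locus bar is knockout 4 h against knockout DMSO, with 39.0% lower beside 14.6%, in the library with the lowest background pileup.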

How the data were processed

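Peaks had been called separately in each library, and the authors' broad peak lists, on hg19, were the only data. According to the submitters' processing notes the software was MACS2 2.1.2, BWA 0.7.17, Picard 2.9.2, SAMtools 1.8, Trimmomatic 0.39 and Trim Galore 0.6.2, and neither settings nor the control of the peak calls are given in the sources used here. The deposited fold is the authors' value of pileup over local background, taken here to have 1 added to both. The −log10 p and −log10 q are as the authors deposited them, and their deposited score column was not used.

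Members, segments and comparisons were chosen with earlier results of these data known. Members overlapped the locus by at least 1 bp, and covered length was clipped to it. Ranks used whole lists, with ties given the best rank. Matched peaks are the 30000 with the smallest p on chromosomes 1 to 22 and X. Sites are deposited peaks of all lists merged genome-wide. Windows of 10 kb were tiled from position 1. Named were the 10 sites of smallest median rank over the 5 deeper libraries, the strongest member of each segment and library, the matched sites of the cluster and the 5 widest gaps. Segment borders are round positions set without an annotation. Background pileup was solved from MACS2's formulas, with pileup plus 1 over background plus 1 as fold and a Poisson p. The window step was checked by emptying windows of the parental DMSO list, which should then be called lower. The pileup step was checked on values made from its own formulas. Reads were not analysed, so depth is inferred only from that pileup. Work used Python 3.11.15 with pandas 2.3.3, scipy 1.17.1 and matplotlib 3.10.9.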

Additional observations from a re-analysis of the deposited data

How the results depend on the processing

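No paired analysis was possible because each group had 1 library. Covered length of the locus under other peak sets is given for knockout DMSO, 2 h and 4 h and then parental DMSO, 2 h and 4 h. With matched peaks it was 137401, 140548, 77717, 149305, 117915 and 131049 bp. With a −log10 q of at least 2 it was 128838, 131127, 60360, 127914, 97666 and 111357 bp. Without peaks at the fold and p shared by the largest number of peaks it was 269267, 249179, 222595, 237867, 238417 and 253616 bp. Knockout 4 h was lowest in all 3.

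Called windows are first given higher and lower together. With all deposited peaks, 23 were called in knockout 2 h against knockout DMSO (11 with matched peaks), 29 in parental 2 h against parental DMSO (18) and 26 in parental 4 h against parental DMSO (10). The shares with all deposited peaks were 18.25%, 23.4% and 20.8%, beside 18.0%, 15.8% and 15.2% over the chromosomes. With a difference of 500 bp, 25, 29 and 28 were called in the same 3 comparisons, 31 in knockout DMSO against parental DMSO (14) and 34 in knockout 2 h against parental 2 h (16). At 500 bp the shares were 31.65%, 34.1%, 34.6%, 38.3% and 39.5%, beside 23.1%, 24.0%, 22.4%, 23.9% and 26.6% over the chromosomes. Shifting windows by 5 kb gave 10 in knockout 2 h against parental 2 h (12.7%, beside 12.4%). The other counts stayed within 1.5 times. Directions in the knockout comparisons also moved with all deposited peaks. Knockout 2 h against knockout DMSO had 6 higher and 17 lower, beside 7 and 4 with matched peaks. Knockout 4 h against knockout DMSO had 12 and 27, beside 0 and 30. Knockout 2 h against parental 2 h had 10 and 7, beside 14 and 2. In either direction these were 18.25%, 31.2% and 13.5%, beside 18.0%, 16.8% and 18.3% over the chromosomes.

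By fold, the share of the 66 sites ranked weaker was 48.5% in knockout 2 h and 39.4% in knockout 4 h against knockout DMSO, 34.8% in parental 2 h and 40.9% in parental 4 h against parental DMSO, and 60.6% in knockout 2 h against parental 2 h. Sites matched without knockout 4 h gave 41.9% to 80.2%, each on the same side of even as with it. Moving the joining border by 20 kb left 0 of the 5000 smallest-p peaks below the variable end in each library. The fold ranking, the whole-width, the border and the site alternatives were chosen after seeing the data, except the fold rank of the strongest member, which was planned. With 1 library per group, spread between replicates is unknown, and knockout 4 h limits every comparison that uses it.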
